A study of Mus musculus with 8 samples.

Results

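The comparison set colonic lamina propria cells of mutant mice against those of wildtype mice after injury with dextran sulfate sodium (DSS), separately for T cells, macrophages and fibroblasts. Cell barcodes of the 4 DSS libraries with at least 400 genes and under 20% mitochondrial UMIs (unique molecular identifiers, each standing for 1 counted transcript) were used. These numbered 49949, of 100673 barcodes in the 8 tables of the series. A barcode counted as a T cell with at least 2 UMIs summed over Cd3e, Cd3d, Cd3g, Trac and Trbc2, as a macrophage with at least 10 over C1qa, C1qb and C1qc, and as a fibroblast with at least 20 over Col1a1, Col1a2, Col3a1 and Dcn. In wildtype replicate 1, wildtype replicate 2, mutant replicate 1 and mutant replicate 2 the rules took 7861, 7993, 9575 and 6744 barcodes as T cells. In the same order they took 653, 818, 835 and 942 as macrophages and 285, 1197, 904 and 922 as fibroblasts. Lists of 4 values below keep this order of libraries.

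All mice were C57BL/6, kept under specific pathogen-free conditions and 10 to 12 weeks old, per the labels. The DSS groups drank 2% DSS for 7 days and plain water for 3 days, and tissue was taken on day 10. The untreated groups, which enter the fits and the tests of treatment dependence, drank plain water for 10 days. The 4 groups, untreated and DSS-treated wildtype and untreated and DSS-treated mutant, had 2 libraries each. The mutant libraries are titled S203AKI, while the series title names an S182A mutation. The labels do not say how the 2 names relate, so "mutant" here means a library titled S203AKI. The design text speaks of independent biological replicates, and replicate numbers here only name libraries. Cells were freed by enzyme digestion, passed through a Percoll gradient and enriched for CD4+ T cells with an isolation kit, per the labels, which give a load of about 10000 cells for each library. The macrophages and fibroblasts are therefore cells that came through a T cell enrichment.

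T helper 17 (Th17) cells are CD4+ T cells of barrier tissues such as the gut. They secrete IL-17A, IL-17F and IL-22, which act on stromal and epithelial cells to raise antimicrobial proteins and neutrophil-attracting chemokines. DSS damages the colonic epithelium, after which macrophages and fibroblasts take part in inflammation and repair. Several nuclear receptors bind DNA elements built around the half-site AGGTCA.

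The sequences 250 bases upstream of the starts of Il17a and Il17f are shown because these are the type 17 cytokine genes described first among the T cell genes. They are RefSeq sequences of build GRCm38.p6, written 5′ to 3′ on the strand of each gene, and capitals mark AGGTCA or its reverse complement TGACCT. Il17a lies on the plus strand and the window covers chr1:20730655-20730904. Il17f lies on the minus strand and the window covers chr1:20784271-20784520. Both starts are those of RefSeq; the GENCODE M21 gene model of Il17f reaches further upstream and includes its window.
Il17a: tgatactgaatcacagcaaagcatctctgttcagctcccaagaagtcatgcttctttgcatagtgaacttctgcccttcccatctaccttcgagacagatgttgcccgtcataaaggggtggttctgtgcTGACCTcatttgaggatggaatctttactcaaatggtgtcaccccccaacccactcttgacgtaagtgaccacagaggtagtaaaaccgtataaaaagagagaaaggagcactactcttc
Il17f: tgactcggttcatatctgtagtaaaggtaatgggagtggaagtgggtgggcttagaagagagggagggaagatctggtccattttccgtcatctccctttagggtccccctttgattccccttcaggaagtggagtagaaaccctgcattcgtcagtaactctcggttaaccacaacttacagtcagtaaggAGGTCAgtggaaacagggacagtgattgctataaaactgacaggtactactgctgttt
The match begins 120 bases before the start of Il17a and 58 bases before that of Il17f. Of 32851 promoter windows of this length, 4607 (14%) held the same 6 bases on either strand, so a match by itself is common. No binding was measured here.

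A substitution of 1 amino acid is not seen in counts per gene, so no level here checks the genotype labels. Levels are given in CPM (UMI counts scaled to the library's sum, with TMM factors unless said otherwise; marker sums are without them), and fold changes are mutant over wildtype on the log2 scale.

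The DSS libraries held 34497509, 41950127, 45316661 and 46960005 UMIs, with a median of 2140, 1961, 1886 and 2818 per passing barcode. Mutant replicate 2 was thus the most deeply sampled per barcode. Pairs of DSS libraries shared 37 to 59 barcodes, at most 0.53% of a library. Macrophage markers summed to between 8595 and 9174 CPM in macrophage barcodes against 320 to 446 CPM in T cell barcodes. Fibroblast markers summed to between 13967 and 21447 CPM in fibroblast barcodes against 915 to 2497 CPM in T cell barcodes. Both marker lists hold the genes of the rule, so the rule itself makes these sums high in the chosen barcodes. At 1000 UMIs per barcode, Cd4 was detected in 21.3%, 26.6%, 25.5% and 26.0% of T cell barcodes and Cd8a in 0.197%, 0.447%, 0.241% and 0.134%.

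The share of each population did not differ between genotypes beyond the spread of the libraries. T cells made up 72.6%, 59.6%, 62.3% and 65.2% of passing barcodes, or 66.1% ± 9.21 in wildtype and 63.8% ± 2.07 in mutant (SD, n = 2 each, exact two-sided permutation p = 1). Macrophages made up 6.03%, 6.10%, 5.43% and 9.11% (6.07% ± 0.0472 against 7.27% ± 2.60, n = 2, exact permutation p = 1). Fibroblasts made up 2.63%, 8.92%, 5.88% and 8.92% (5.78% ± 4.45 against 7.40% ± 2.15, n = 2, exact permutation p = 1). Wildtype replicate 1 held the fewest fibroblasts. With 2 libraries against 2 the exact test cannot give a p below 0.33.

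Many barcodes met more than 1 rule, 242, 473, 545 and 529 in the 4 libraries. Among fibroblast barcodes, 37.9%, 31.2%, 42.8% and 44.0% also met another rule, both mutant libraries lying above both wildtype libraries (34.6% ± 4.70 against 43.4% ± 0.866, n = 2, exact permutation p = 0.33). Among macrophage barcodes the share was 21.1%, 17.7%, 21.9% and 21.4%, and among T cell barcodes 3.04%, 5.45%, 5.51% and 7.01%. No doublet caller was run, and several results below are also given for barcodes that met 1 rule only.

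**Figure D1:**
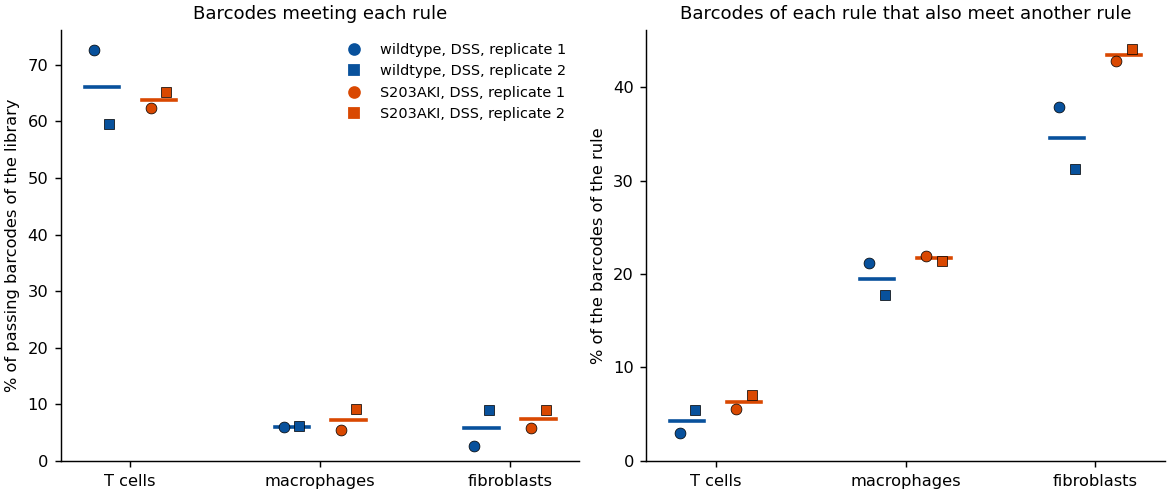
Left, percent of passing barcodes that met the T cell, macrophage and fibroblast rules in each of the 4 DSS libraries. Right, percent of each population's barcodes that also met another rule. Points are libraries and bars are group means. The wildtype fibroblast shares are far apart (2.63% and 8.92%), and in the right panel the mutant libraries lie above the wildtype libraries in every population.

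In T cells no gene passed the test between genotypes after DSS. Of 14925 genes tested with edgeR's quasi-likelihood test, 0 (0.0%) passed an adjusted p of 0.05, and 257 (1.72%) had an unadjusted p under 0.05, 153 of them (1.03%) higher and 104 (0.697%) lower in mutant. DESeq2 on the same sums called 2 genes, Fabp4 and Arg1. The type 17 cytokines varied more between the 2 mutant libraries than between genotypes. Among the 5525 genes at a mean of 20 CPM or more, 95.15% had a 95% interval within 2-fold in either direction, so a change of more than 2-fold in most well-measured genes lay outside their intervals. In sums over barcodes, fewer cells of a type and less RNA per cell cannot be told apart.

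Il17a (ENSMUSG00000025929, GRCm38 chr1:20730905-20734496, plus strand), the founding cytokine of the Th17 programme, stood at 609, 263, 1065 and 161 CPM. The highest and the lowest value were both mutant, and the wildtype libraries lay between them. Its log2 fold change was 0.49 ± 0.84 (SE, 95% interval -1.46 to 2.44) and became -1.42 without mutant replicate 1 and 1.29 without mutant replicate 2. At a fixed 1000 UMIs per barcode, Il17a was detected in 16.3%, 8.81%, 30.8% and 6.69% of T cell barcodes, against 23.1%, 12.0%, 39.0% and 11.6% before thinning, and thinning left out 266, 391, 431 and 36 shallower barcodes. In fibroblast barcodes that met no other rule, where Il17a is not a known product, the thinned share was 2.84%, 0.974%, 4.48% and 1.16%, in barcodes with median depths of 6074, 5538, 5256 and 6860 UMIs against 2182, 1926, 1933 and 2815 in T cells. The T cell share was the larger in each library.

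Il17f (ENSMUSG00000041872, GRCm38 chr1:20777146-20790617, minus strand), the close relative of Il17a, stood at 68.6, 24.3, 87.5 and 12.9 CPM. Il22, a cytokine that acts on epithelium, stood at 186, 61.4, 174 and 43.5 CPM. In both genes replicate 1 of each genotype lay above replicate 2 of each genotype, so the libraries of the genotypes overlapped. The log2 fold changes were 0.11 for Il17f and -0.19 ± 0.66 for Il22, and without single libraries they ran from -1.83 to 1.03 and from -1.49 to 0.81. Il23r, the receptor subunit for the cytokine that sustains Th17 cells, stood at 19.5, 8.43, 17.8 and 6.58 CPM, and Ccr6, a homing receptor of Th17 cells, at 27.8, 19.1, 29.1 and 11.5 CPM. Replicate 1 was again above replicate 2 in each genotype. Of the 22 genes of the type 17 list, 11 had a log2 fold change above 0 and 11 below, with a median of -0.01 against 0.01 over all T cell genes, and no member had an unadjusted p under 0.05. In 3 members both mutant libraries lay below both wildtype libraries and in 0 above, while 22.2% of all tested genes did not overlap (11.2% above and 11.1% below).

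**Figure D2:**
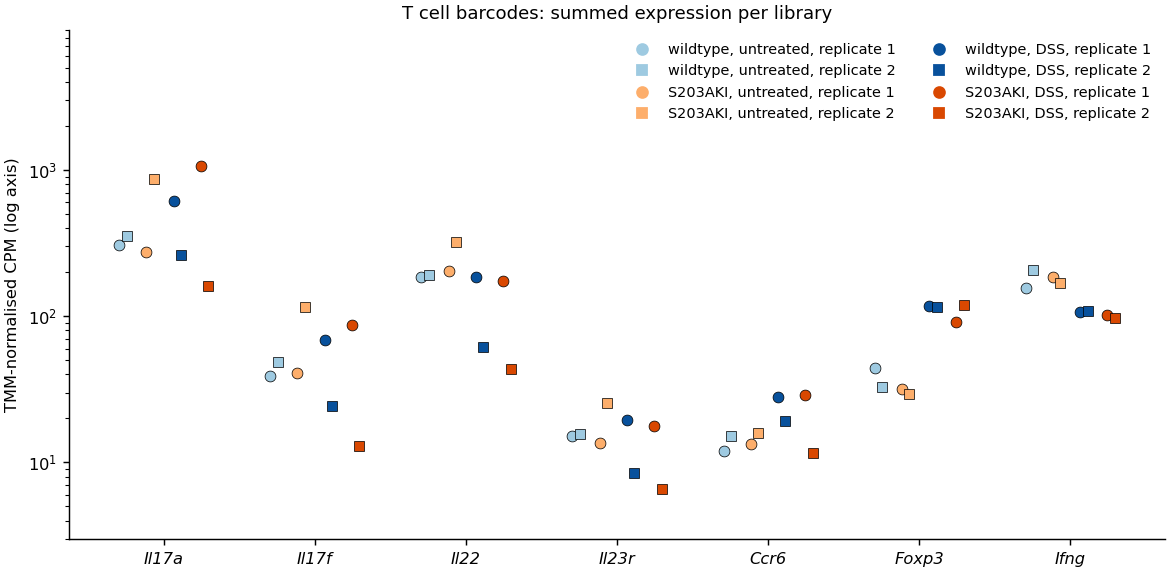
Level of Il17a, Il17f, Il22, Il23r, Ccr6, Foxp3 and Ifng in T cell barcodes, in TMM-scaled CPM on a log axis, in each of the 8 libraries by group. Il17a reaches 1065 CPM in 1 mutant DSS library and 161 CPM in the other, wider than the gap between the genotypes.

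Transcription factors shared by the type 17 and other T cell programmes overlapped between the genotypes. Rora stood at 954, 819, 966 and 728 CPM, Maf at 998, 1119, 1001 and 1074 CPM and Stat3 at 694, 614, 702 and 551 CPM, with log2 fold changes of -0.07, -0.03 and -0.06. Foxp3, the lineage factor of regulatory T cells, stood at 118, 115, 91.4 and 120 CPM and overlapped (log2 fold change -0.14). Ifng, the signature cytokine of type 1 T cells, stood at 107, 108, 102 and 97.3 CPM, with both mutant libraries slightly lower (-0.10).

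The T cell gene with the smallest p was Fabp4, a fatty acid binding protein of adipocytes, endothelium and macrophages. It stood at 15.2, 12.0, 30.6 and 29.8 CPM, with both mutant libraries at about the same level above both wildtype libraries, and had a log2 fold change of 1.15 ± 0.19 (SE). Its edgeR unadjusted p was 0.00033 and its adjusted p was 1, while DESeq2 gave an adjusted p of 0.00212. The transcripts came from few barcodes, 46, 78, 104 and 83 with any UMI, and the 5 barcodes with most UMIs held 69.9%, 51.6%, 46.1% and 63.4% of them. Without TMM scaling the level was 14.8, 12.2, 31.2 and 30.7 CPM, and without those 5 barcodes it was 4.44, 5.90, 16.8 and 11.2 CPM, with the genotypes still not overlapping. Without DSS, too, Fabp4 was higher in both mutant libraries, at 26.1 and 25.6 CPM in wildtype and 46.1 and 32.5 CPM in mutant, and the interaction of genotype and treatment was 0.54 on the log2 scale (edgeR unadjusted p = 0.0713). Over all passing barcodes after DSS it stood at 56.8, 50.6, 90.4 and 93.4 CPM without TMM scaling. The genotypes overlapped in barcodes that met none of the 3 rules, which held most Fabp4 UMIs, at 228, 147, 215 and 347 CPM on the same scale. They also overlapped in macrophage barcodes (7.67, 15.2, 4.37 and 32.3 CPM) and in fibroblast barcodes (124.5, 22.2, 144.3 and 50.2 CPM). In barcodes that met only the T cell rule the log2 fold change was 1.06. The other DESeq2 call, Arg1, an arginine-degrading enzyme of macrophages, had 53, 85, 340 and 389 UMIs in T cell barcodes, of which 5 barcodes in each library held 81.2% to 87.1%. In barcodes that met only the T cell rule it stood at 2.25, 4.30, 13.8 and 6.82 CPM, without TMM scaling. Macrophage markers in T cell barcodes summed to 320, 446, 398 and 359 CPM, and their part in these values was not tested.

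The other T cell genes higher in mutant at the smallest p values included Lgals7, a galectin of stratified epithelium, at 33.7, 31.9, 95.9 and 48.9 CPM (log2 fold change 1.14, edgeR unadjusted p = 0.00329). Gsto1, a glutathione transferase, stood at 37.9, 56.7, 78.3 and 86.7 CPM (0.80, unadjusted p = 0.00416), and Nbl1, a secreted BMP antagonist, at 15.3, 36.9, 51.7 and 54.4 CPM (1.02, unadjusted p = 0.0173). All 3 separated the genotypes, which their choice by small p favours, and none passed adjustment. In barcodes that met only the T cell rule their log2 fold changes were 1.13, 0.61 and 0.58. Lgals7 was at 0.59 without mutant replicate 1, and Nbl1 at 0.52 without wildtype replicate 1 and 1.81 without wildtype replicate 2. Squamous epithelium markers summed to 161, 315, 461 and 282 CPM in the same T cell barcodes and fibroblast markers to 915, 2317, 2497 and 2226 CPM. Their part in these genes was not tested. Cp, Epas1, Susd6 and Rps12-ps3 completed the group, with log2 fold changes of 0.30 to 0.70.

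Among genes lower in mutant T cells, Tcf7 (ENSMUSG00000000782, GRCm38 chr11:52252371-52283014), a transcription factor of naive and memory T cells, stood at 157, 139, 110 and 115 CPM. The genotypes did not overlap and the log2 fold change was -0.40 ± 0.10 (SE, edgeR unadjusted p = 0.00453, adjusted p = 1). Without DSS the order was the opposite, 117 and 110 CPM in wildtype and 139 and 147 CPM in mutant, and the interaction of genotype and treatment was -0.73 on the log2 scale (edgeR unadjusted p = 0.00102, adjusted p = 1). At 1000 UMIs per barcode Tcf7 was detected in 14.9%, 14.3%, 11.8% and 12.6% of T cell barcodes. Wildtype shares were the higher, in the same order as the CPM, which come from the same UMIs. Before thinning the shares overlapped, at 28.9%, 25.4%, 21.4% and 28.5%, with mutant replicate 2 the most deeply sampled.

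Other genes lower in the mutant libraries at the smallest p values were Gzmb, Itgae and Itgb8. Gzmb, a granule protease, stood at 228, 198, 154 and 157 CPM (log2 fold change -0.45, edgeR unadjusted p = 0.0109). Itgae, the integrin that holds T cells at epithelium, stood at 40.7, 39.5, 32.6 and 30.9 CPM (-0.34, unadjusted p = 0.0117), and Itgb8, an integrin that activates TGF-β, at 29.1, 28.2, 17.5 and 20.3 CPM (-0.60, unadjusted p = 0.00624). In each the libraries of a genotype lay close together and apart from the other genotype, which the choice by small p favours. Before thinning, the shares of T cell barcodes with Gzmb (16.3%, 16.5%, 13.1% and 17.1%) and with Itgae (9.07%, 7.73%, 6.50% and 8.82%) overlapped between the genotypes. At 1000 UMIs per barcode, Gzmb was detected in 10.2%, 10.5%, 8.49% and 8.50% of T cell barcodes and Itgae in 3.90%, 3.85%, 3.03% and 2.95%. In barcodes that met only the T cell rule, Gzmb was at 10.3%, 10.8%, 9.05% and 8.40%. Itgae was at 3.97%, 3.91%, 3.56% and 3.48% there, and at 9.11%, 7.83%, 6.67% and 8.95% before thinning. In both mutant libraries more barcodes had Itgae after thinning in this smaller set (307 and 217) than in the full set (277 and 198). The sets were therefore thinned in separate random draws. Their thinned shares cannot show whether Itgae was closer between the genotypes in the smaller set. Cst7, Ms4a6b, Hypk and the predicted gene Gm12840 were also lower, with log2 fold changes of -0.34 to -0.60. None of these genes passed adjustment.

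The lists of T cell states held no gene past adjustment. In the regulatory T cell list 7 of 14 members lay lower in both mutant libraries and 1 higher, with a median log2 fold change of -0.19; Tnfrsf4 (-0.36), Tnfrsf18 (-0.23) and Itgae were among its members, and 1 member, Itgae, had an unadjusted p under 0.05. In the naive and quiescence list, which holds Tcf7, Il7r (-0.22) and Foxp1 (-0.17), all 10 members had a log2 fold change below 0 (median -0.16), and 4 did not overlap. In the type 1 and cytotoxic list 4 of 14 did not overlap and all 4 were lower (median -0.10). In the type 2 and repair list, which holds Gata3 (-0.30), 2 of 9 did not overlap and both were lower (median -0.30). The interferon-induced list had 23 of 24 members below 0 with a median of -0.15, but only 2 did not overlap. The glycolysis and hypoxia list had 4 of 13 members higher without overlap and a median of 0.06, the heat shock list 3 of 11 and -0.02, the immediate early list 1 of 14 and 0.08, and the proliferation list 0 of 14 and -0.08, with 1 lower. These counts stand beside 11.2% and 11.1% of all T cell genes, and the members were not independent of one another.

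Treatment dependence of the genotype difference was tested as an interaction. In T cells 0 of 14925 genes (0.0%) passed adjustment and 350 (2.35%) had an unadjusted p under 0.05, and DESeq2 called 2, Hspd1 (-1.74) and Dtx1 (-1.35). The 4 genes of the heat shock list with the highest CPM were among those with an unadjusted p under 0.05. The interactions of its other members are not given here. Hsp90aa1, an inducible chaperone, stood at 2283, 1427, 1655 and 1642 CPM after DSS, where the genotypes overlapped. Without DSS it stood at 1804 and 3094 CPM in wildtype and 4724 and 5837 CPM in mutant, so that the difference lay in the untreated libraries (interaction -1.28, edgeR unadjusted p = 0.0158). Hsp90ab1 (-0.82), Hspa8 (-0.73) and Dnaja1 (-0.62) had interactions of the same sign with unadjusted p values of 0.0131 to 0.0271.

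In macrophages 1 gene of 11508 (0.00869%) passed adjustment, and its genotypes overlapped once the 5 barcodes with most of it in each library were left out. The gene was Iglc1 (ENSMUSG00000105906, GRCm38 chr16:19061618-19062071, minus strand), a constant segment of the immunoglobulin lambda light chain made by B and plasma cells. With it, 251 genes (2.18%) had an unadjusted p under 0.05, 139 of them (1.21%) higher and the others (0.973%) lower in mutant, and 24.9% of all genes did not overlap (12.6% above and 12.3% below). Most genes of macrophage identity, antigen presentation and inflammatory activation overlapped between the genotypes.

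Iglc1 stood at 13.7, 45.8, 857 and 709 CPM in macrophage barcodes, both mutant libraries far above both wildtype libraries. The log2 fold change was 4.71 ± 0.46 (SE, 95% interval 3.66 to 5.75) with an edgeR adjusted p of 0.0329, and DESeq2 gave an adjusted p of 4.56e-11. Untreated libraries had the opposite order, 419 and 314 CPM in wildtype and 97.3 and 70.7 CPM in mutant. The interaction was 6.82 ± 0.61 (edgeR adjusted p = 0.0149), again the 1 gene called of 11508 (0.00869%), with 358 (3.11%) at an unadjusted p under 0.05. Of the 40, 147, 2841 and 3722 Iglc1 UMIs, 1 barcode held 1788 in mutant replicate 1 and 1 barcode held 2859 in mutant replicate 2. In wildtype the fullest barcode held 8 and 5. The 5 barcodes with most Iglc1 held 45.0%, 12.2%, 88.6% and 98.3% of it. Without TMM scaling, Iglc1 after DSS was also higher in both mutant libraries over all passing barcodes (329, 911, 1444 and 1143 CPM). The same held in barcodes that met none of the 3 rules (1747, 2356, 4219 and 3990 CPM). In T cell barcodes wildtype replicate 2 and mutant replicate 2 were almost equal (13.7, 182.4, 285.4 and 183.4 CPM). The percent of T cell barcodes with an Iglc1 UMI overlapped between the genotypes, at 2.70%, 13.1%, 28.5% and 4.98% before thinning. In fibroblast barcodes the genotypes overlapped (21.5, 900, 621 and 1677 CPM).

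Without those 5 barcodes' Iglc1 the level was 7.67, 41.7, 100.7 and 13.4 CPM, unscaled, and the genotypes overlapped. The percent of macrophage barcodes with an Iglc1 UMI was 4.13%, 15.6%, 30.8% and 6.58%, in which the genotypes also overlapped. In macrophage barcodes that met no other rule the level without TMM scaling was 13.5, 55.0, 1315 and 17.4 CPM, and no gene was then called. The call was also lost with the 4 DSS libraries alone, with the UMI thresholds doubled, among barcodes on the deposited cell list, and without any 1 of the 4 untreated or of the 2 mutant DSS libraries. The log2 fold change stayed between 4.09 and 5.83 when single libraries were left out, and was 4.25 in barcodes that met no other rule, 5.32 with doubled thresholds and 5.05 among listed barcodes. All B and plasma cell markers together summed to 14286, 19239, 16667 and 23736 CPM in these barcodes, with Ms4a1 at 0 in wildtype replicate 1, and their part was not tested. Another immunoglobulin gene, Ighg2c, chosen after its values were seen, had 1, 56, 454 and 1243 UMIs, of which single barcodes held 372 and 1222 in mutant. Without TMM scaling, the genotypes overlapped in macrophage barcodes for Igha and for Iglc2, which was highest in wildtype replicate 2 (47.2 CPM). They also overlapped for Igkc (7083, 9572, 7055 and 11388 CPM). Both mutant libraries were higher for Iglc3 (8.02, 7.44, 8.73 and 37.9 CPM) and for Jchain (1997, 2075, 2308 and 2377 CPM).

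**Figure D3:**
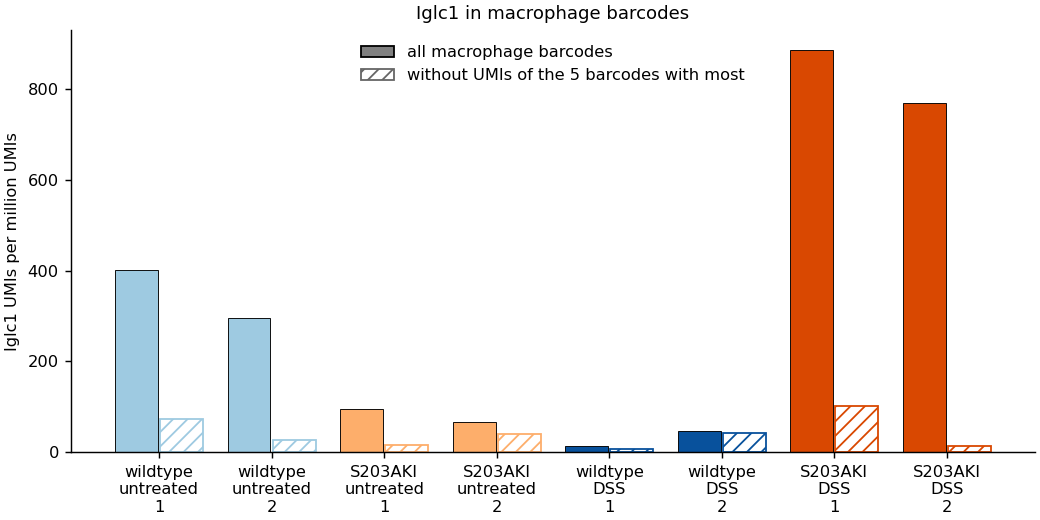
Iglc1 in macrophage barcodes of the 8 libraries, in CPM without TMM scaling. Solid bars hold all barcodes and hatched bars leave out the Iglc1 UMIs of the 5 barcodes with most. The mutant DSS libraries fall from 886 and 770 CPM to 100.7 and 13.4 CPM, against 7.67 and 41.7 CPM in wildtype.

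Abundant macrophage genes overlapped or lay close together. Apoe, a lipid carrier, stood at 11602, 10949, 10629 and 9396 CPM (log2 fold change -0.17) and Selenop, a selenium carrier, at 1502, 1542, 1338 and 1682 CPM (-0.01). Of 17 tested genes of the resident macrophage list, 1 lay higher and 1 lower without overlap (median -0.03). Cd74, the invariant chain of antigen presentation, stood at 14152, 11507, 14398 and 7190 CPM and H2-Ab1, a class II chain, at 5108, 4488, 5088 and 2976 CPM, both lowest in mutant replicate 2. Of 10 genes of the antigen presentation list, 9 had a log2 fold change below 0 (median -0.21), 1 lay higher and 1 lower without overlap, and the median was 0.14 without mutant replicate 2.

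Inflammatory genes of macrophages mostly overlapped. Il1b stood at 3345, 3183, 3445 and 2360 CPM (-0.17), Cxcl2, which attracts neutrophils, at 1944, 1619, 1518 and 1840 CPM (-0.09) and Il1rn, the IL-1 receptor antagonist, at 1096, 773, 925 and 667 CPM (-0.23). Of 23 genes of the monocyte and inflammatory list, 1 lay higher and 1 lower without overlap (median 0.11). The lower one was Spp1, the secreted phosphoprotein osteopontin, at 21.3, 26.5, 13.0 and 10.9 CPM (log2 fold change -1.02 ± 0.26, edgeR unadjusted p = 0.0035, adjusted p = 1). It rested on 62, 85, 43 and 57 UMIs. Chil3, a chitinase-like protein of alternatively activated macrophages, stood at 4.80, 18.4, 12.1 and 74.1 CPM and overlapped. Spp1 and Chil3 were the 2 members of the list with an edgeR unadjusted p under 0.05. The Chil3 log2 fold change ran from 0.04 to 3.20 when single libraries were left out. Among cytokines that drive or sustain Th17 cells, 9 of 10 listed genes were tested (Il12a was not), 7 were below 0 and none was without overlap; Tgfb1 stood at 304, 310, 340 and 283 CPM.

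Ccl8, a monocyte-attracting chemokine (GRCm38 chr11:82115185-82116799), stood at 987, 860, 769 and 502 CPM in macrophages, both mutant libraries below both wildtype libraries (log2 fold change -0.54 ± 0.21, edgeR unadjusted p = 0.0322). Other genes lower in mutant macrophages included Lyz1, a lysozyme, at 110, 64.8, 44.6 and 48.0 CPM (-0.91), S100a4, a calcium-binding protein of motile cells, at 106, 133, 90.2 and 70.3 CPM (-0.58), and the ribosomal gene Rpl36al at 136, 197, 114 and 105 CPM (-0.60). Gzmb, which is no macrophage product, was lower too at 35, 21.5, 17.2 and 17.1 CPM (-0.71). It was -0.21 in barcodes that met only the macrophage rule. T cell markers in macrophage barcodes summed to 726, 491, 591 and 480 CPM, and their part in Gzmb was not tested. These markers include Cd4, found before thinning in 42.9%, 38.8%, 37.3% and 41.1% of barcodes that met only the macrophage rule. The sum therefore does not measure T cell transcripts alone. In the proliferation list 13 of 14 members were below 0 (median -0.40), with Mki67 at 171, 115, 95 and 95.2 CPM (-0.59), and 4 did not overlap, all lower. The heat shock list had all 11 members below 0 (median -0.27) but 0 without overlap, and its median was 0.39 without wildtype replicate 1.

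Higher in mutant macrophages were Cd36, a scavenger receptor for lipids, at 14.1, 22.4, 27.4 and 32.4 CPM (0.71, edgeR unadjusted p = 0.0234), Etfa, a mitochondrial electron carrier, at 36.0, 43.6, 58.5 and 54.6 CPM (0.50) and Heca at 59.6, 57.9, 72.1 and 82.8 CPM (0.40). Without DSS, Cd36 was higher in wildtype (72.4 and 104 CPM) than in mutant (60.4 and 59.9 CPM), with an interaction of 1.26 (unadjusted p = 0.00502). Genes of mesenchymal cells stood in the same group. Acta2, smooth muscle actin, was at 8.57, 14.3, 45.5 and 18.9 CPM (1.45), Tagln, an actin-binding protein of smooth muscle, at 9.94, 14.3, 54.0 and 16.8 CPM (1.5) and Sfrp1, a secreted Wnt inhibitor, at 30.2, 65.4, 82.3 and 191 CPM (1.52). Acta2 came from 8, 15, 30 and 16 barcodes. In barcodes that met only the macrophage rule the log2 fold changes were 1.20 for Acta2, 1.5 for Tagln and 1.88 for Sfrp1. Leaving out mutant replicate 1 gave 0.71, 0.46 and 2.00, and leaving out mutant replicate 2 gave 1.98, 2.14 and 0.77. Tagln was at -0.49 among listed barcodes. Fibroblast markers in macrophage barcodes summed to 443, 1204, 1160 and 1345 CPM and smooth muscle markers to 31.7, 46.6, 63.6 and 74.5 CPM, and their part was not tested. Without wildtype replicate 2 the macrophage comparison called 18 genes, all higher in mutant, among them Pdgfra, Col6a1, Fn1 and Cdh11, which fibroblasts make, and wildtype replicate 1 was then the only wildtype DSS library and had the lowest fibroblast marker sum.

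In fibroblasts 0 of 13915 genes (0.0%) passed adjustment, with DESeq2 also at 0. An unadjusted p under 0.05 was found for 346 (2.49%), 223 (1.6%) higher and 123 (0.884%) lower in mutant, and 23.7% of genes did not overlap (12.0% above and 11.7% below). The genes higher at the smallest p values included Stat5a, Itgb7 and Il2rg, and those lower included Ccl8 and Timm10b. The most abundant genes of the IL-17 response overlapped between the genotypes.

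The 8 higher genes were Stat5a, Gmfg, Ankrd44, Sh2d2a, Itgb7, Il18r1, Il2rg and Gpr132. Stat5a, a cytokine signalling factor, stood at 29.9, 27.4, 41.7 and 47.9 CPM (log2 fold change 0.66 ± 0.14, edgeR unadjusted p = 0.00133, adjusted p = 1). Itgb7, a gut-homing integrin of lymphocytes, stood at 27.9, 30.4, 42.2 and 50.2 CPM (0.66) and Il2rg, the common cytokine receptor chain, at 38.5, 35.7, 51.6 and 51.5 CPM (0.48). In each the genotypes were well apart, which the choice by small p favours. In fibroblast barcodes that met no other rule the log2 fold changes were 0.46 for Stat5a, 0.46 for Ankrd44, 0.28 for Itgb7, 0.09 for Il18r1 and Il2rg, -0.05 for Gpr132, -0.07 for Gmfg and -0.09 for Sh2d2a, and 0 of the 8 had an unadjusted p under 0.05. T cell markers in all fibroblast barcodes summed to 540, 402, 608 and 626 CPM, with both mutant libraries above both wildtype libraries, and the share that also met another rule had the same order. The part of either in these genes was not tested. The untreated libraries had the opposite order in all 8 genes, with interactions of 0.75 to 1.42 and unadjusted p values of 0.000226 to 0.0028 (edgeR adjusted p of 0.556 or more). Over all genes 615 (4.42%) had an interaction at an unadjusted p under 0.05 and 0 (0.0%) passed adjustment.

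Ccl8 stood at 207, 188, 142 and 84.7 CPM in fibroblasts, both mutant libraries lower (log2 fold change -0.80 ± 0.23, edgeR unadjusted p = 0.00793, adjusted p = 1), and at -0.73 in barcodes that met only the fibroblast rule. Its level was higher in macrophages than in fibroblasts in each library. Macrophage markers in fibroblast barcodes summed to 280, 572, 405 and 697 CPM, and their part in the Ccl8 level was not tested. Col6a4, a collagen VI chain, stood at 19.3, 17.6, 11.7 and 8.19 CPM (-0.89, edgeR unadjusted p = 0.0164). Csrp1, a LIM protein of smooth muscle and stroma, stood at 494, 457, 380 and 321 CPM (-0.44). Agt, angiotensinogen, stood at 44.8, 43.5, 35.4 and 30.4 CPM (-0.43), with the opposite sign in 1 of 17 alternatives. Timm10b, a mitochondrial import chaperone, stood at 71.1, 69.9, 51.8 and 43.0 CPM (-0.57) and Fam162b at 23.6, 31.5, 16.3 and 17.1 CPM (-0.75). In the barcodes that met 1 rule only they were -0.58 and -0.62.

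No matrix gene passed the test. All 17 collagens tested outside the rule had a log2 fold change below 0, with a median of -0.16 against -0.01 over all fibroblast genes. Of these 3 were without overlap, all lower, and 1 had an unadjusted p under 0.05. The median was -0.45 without mutant replicate 1 and -0.03 without mutant replicate 2. The most abundant ones overlapped, with Col4a1, a basement membrane chain, at 1286, 1641, 1277 and 1600 CPM (-0.03) and Col18a1 at 641, 1221, 651 and 1089 CPM (-0.10). Leaving out single libraries moved Col4a1 between -0.19 and 0.18 and Col18a1 between -0.52 and 0.46. Of 21 other matrix genes, 16 were below 0 and 0 were without overlap (median -0.07, and 0.11 without wildtype replicate 2 or 0.06 without mutant replicate 2). Sparc stood at 3529, 3119, 3649 and 1877 CPM (-0.27, between -0.82 and 0.14 when single libraries were left out).

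No gene of the list of known IL-17 responses in stroma had an unadjusted p under 0.05. Saa3, an acute phase protein, stood at 3995, 2697, 3809 and 4360 CPM, C3, a complement component, at 2957, 2334, 2930 and 2155 CPM and Cxcl1, a neutrophil chemokine, at 966, 2022, 1311 and 1271 CPM. Their log2 fold changes were 0.29, -0.06 and -0.21, and the genotypes overlapped in each. Saa3 was 96.1 to 153 CPM without DSS in both genotypes, far below every DSS library. The IL-17 response list had 7 of 17 members above 0 and 10 below (median -0.05), 2 of them lower without overlap. The inflammatory stroma list, with 23 of 24 genes tested (Chi3l1 was not), had a median of -0.08 and 3 members lower without overlap, Ccl8 among them. In the stromal niche list, of signals to epithelium and lymphocytes, 3 of 22 were lower without overlap (median -0.22). Cxcl13, the B cell chemokine, stood at 1058, 2182, 1358 and 3215 CPM and Grem1, a BMP antagonist of the crypt base, at 1001, 1086, 1128 and 1015 CPM.

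Contractile genes of fibroblast barcodes were highest in 1 wildtype library. Acta2 stood at 1152, 382, 536 and 252 CPM and Tagln at 1135, 402, 551 and 247 CPM, highest in wildtype replicate 1 and lowest in mutant replicate 2. All 9 myofibroblast genes had a log2 fold change below 0 with a median of -0.94, none was without overlap, and the median became 0.24 without wildtype replicate 1. Smooth muscle markers in the same barcodes summed to 2059, 529, 943 and 411 CPM. Hspa1b, an inducible chaperone, stood at 928, 660, 986 and 1139 CPM (0.42), and 3 of 11 heat shock genes were higher without overlap (median 0.05).

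**Figure D4:**
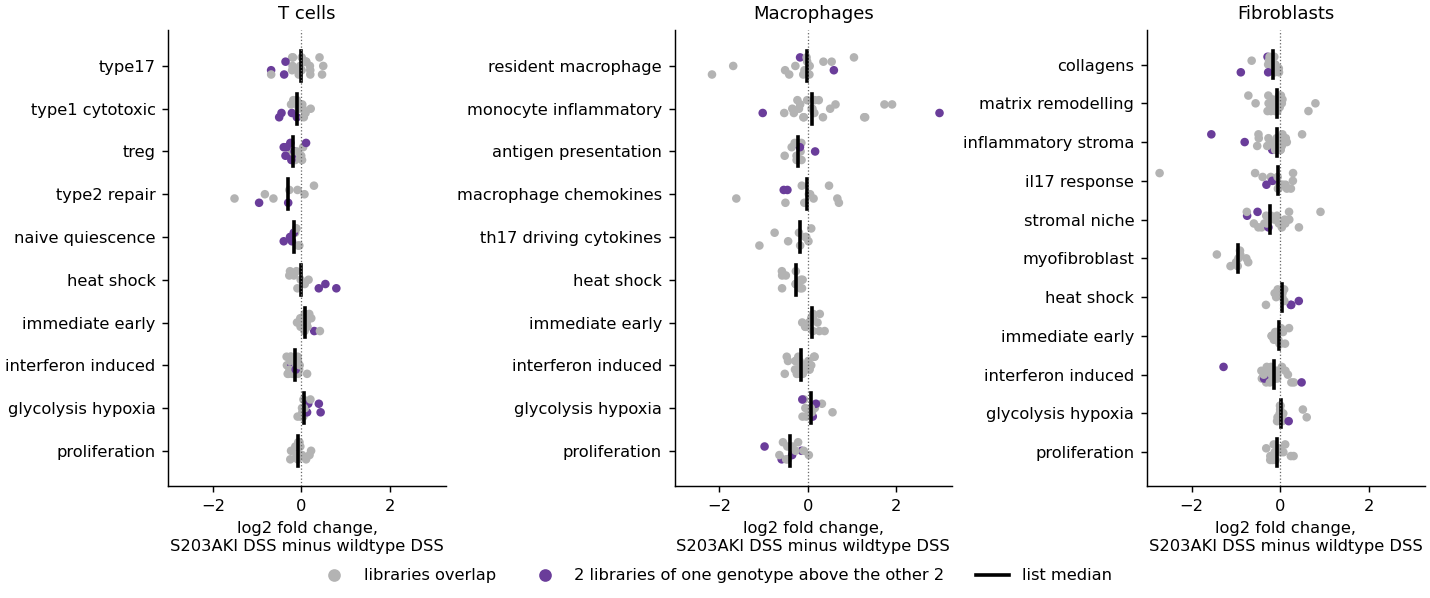
Log2 fold change of mutant over wildtype after DSS for every tested member of each gene list in T cells, macrophages and fibroblasts. Each point is a gene, purple where the libraries of the genotypes did not overlap, and a black bar marks the list's median. Medians lie within 0.3 of 0, apart from the myofibroblast list at -0.94 and the macrophage proliferation list at -0.40.

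What the 3 populations shared was then counted on the 11323 genes tested in all 3. Both mutant libraries lay above both wildtype libraries in all 3 populations for 55 genes (0.486%) and below for 47 (0.415%). In single populations these genes gave 9.29% above and 11.1% below in T cells, 12.6% and 12.2% in macrophages and 11.7% and 11.4% in fibroblasts. The populations came from the same libraries and shared barcodes, so the 3 are not independent. With barcodes that met 1 rule only, 59 genes were shared, 16 of them among those found with all barcodes. No called gene was shared.

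Of the shared genes with at least 20 CPM in each population, 9 lay above and 19 below. Rps12-ps3, named as a pseudogene of the ribosomal gene Rps12 but typed as protein coding in GENCODE M21, may share reads with that gene. It had log2 fold changes of 0.37, 0.84 and 0.59 in T cells, macrophages and fibroblasts. Its levels were 23.4, 18.8, 24.9 and 29.4 CPM in T cells. Sec61g, a subunit of the channel that moves proteins into the endoplasmic reticulum, had 0.18, 0.15 and 0.16, and Rxrb, a nuclear receptor that pairs with other receptors, 0.18, 0.51 and 0.19. In none of these 3 genes did the log2 fold change reach 1.

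Among the genes below, Hypk, a chaperone at the ribosome, stood at 43.9, 47.4, 37.4 and 33.5 CPM in T cells and had log2 fold changes of -0.37, -0.50 and -0.37 in the 3 populations. AY036118, a long noncoding RNA (GRCm38 chr17:39847113-39848035), stood at 1327, 797, 733 and 641 CPM in T cells, 336, 316, 260 and 171 CPM in macrophages and 591, 513, 481 and 389 CPM in fibroblasts, with -0.63, -0.60 and -0.34. Timm10b had -0.25, -0.38 and -0.57, Spsb1, a ubiquitin ligase adaptor, -0.39, -0.56 and -0.32, and Rps2, a ribosomal protein, -0.16, -0.28 and -0.20. Each lay lower in both mutant libraries in every population, and none passed adjustment in any.

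**Figure D5:**
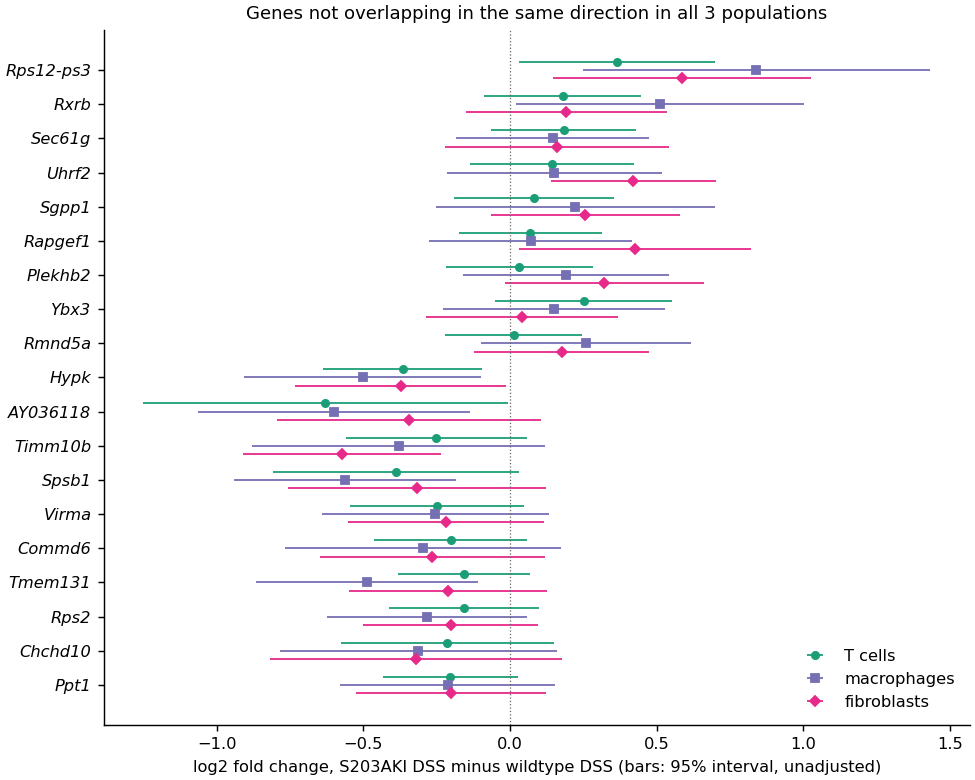
Log2 fold change of mutant over wildtype after DSS, with 95% intervals not adjusted for the number of genes, for 19 genes whose libraries did not overlap in all 3 populations. The points of each gene lie on 1 side of 0 in every population, which the choice of the genes fixes, and many intervals cross 0.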

How the data were processed

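The authors deposited 1 table of raw UMI counts per library, 1 row per gene and 1 column per cell barcode, per the file headers. Cell Ranger 3.1.0, Seurat 4.0.1 and the build mm10 appear in the submitters' processing notes without a stated role, and how barcodes were called is not given in the sources used here. A deposited list of 31053 symbols gave the row order. Of 30934 identifiers found in a gene name table, 98.5% had the listed symbol. A deposited table of listed cells entered 1 alternative only. No doublet caller was run.

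UMIs were summed per library over the barcodes of each population (library sums after DSS of 22545963 to 29869111 in T cells, 2863606 to 4821928 in macrophages and 2462155 to 9681933 in fibroblasts). All 8 libraries were fitted with edgeR 4.0.16 (R 4.3.3; filterByExpr at a minimum count of 10, TMM, quasi-likelihood test, Benjamini-Hochberg over all genes tested, adjusted p threshold 0.05). The fit was also run on simulated counts. These gave every gene the same spread between libraries, so genes held by few barcodes were not imitated. The contrasts were mutant against wildtype after DSS and the interaction of genotype and treatment. Unadjusted p values in the text are those of this fit. CPM values are TMM-scaled unless said otherwise, marker sums are not, and "not overlapping" means that both libraries of 1 genotype lay on the same side of both of the other. DESeq2 1.42.0 was an alternative. Genes used by a population's rule are not reported for it.

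Named genes were, per population, those called, the 8 per direction with the smallest unadjusted p at 20 CPM or more, list members with an unadjusted p under 0.05 and up to 4 of highest CPM, a fixed set of type 17 and T cell genes, and up to 10 shared genes per direction at 20 CPM or more. Sex-linked, immunoglobulin, T cell receptor variable and haemoglobin genes were left out of the choices by smallest p and of the named shared genes. The comparison, the populations and the gene lists were chosen with earlier results of these data known. Some genes that this rule names are not reported here. Exact permutation tests of shares were two-sided. Shares and counts carry counting error as well as the spread between libraries. Alternatives changed the test, the filter, the scaling, the libraries, the population rules and the barcode quality limits (800 genes and 10% mitochondrial UMIs). Promoters were taken from RefSeq and gene positions from GENCODE M21.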

Additional observations from a re-analysis of the deposited data

Results flagged for a closer look

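Iglc1 in macrophage barcodes differed between the treatments in its genotype effect, with an interaction of 6.82 on the log2 scale (edgeR adjusted p = 0.0149). It was higher in wildtype without DSS (419 and 314 CPM against 97.3 and 70.7 CPM) and higher in mutant with DSS (857 and 709 CPM against 13.7 and 45.8 CPM). In the untreated libraries, too, the 5 barcodes with most Iglc1 held 82.0% and 91.0% of it in wildtype and 83.1% and 38.3% in mutant.

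Barcodes that met none of the 3 rules numbered 2270, 3887, 4609 and 2284 in the DSS libraries, and no comparison above used them. Markers of squamous epithelium, which lines the anal canal, summed there, without TMM scaling, to 725 CPM in wildtype replicate 1, 2100 CPM in wildtype replicate 2, 842 CPM in mutant replicate 1 and 2205 CPM in mutant replicate 2, against 30.8 to 98.0 CPM in the 4 untreated libraries. Both genotypes had the signal, and the genotypes overlapped.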

How the results depend on the processing

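Of the alternatives of 235 named gene and population pairs, 3969 stayed on the same side of the threshold, 10 lost a call and 14 gained one. The sign changed in 217, in 0 of them with a call or beyond 2 SE on both sides. After DSS, DESeq2 called 2 T cell genes, 1 macrophage gene and 0 fibroblast genes, and for the interaction 2, 7 and 1. Without a filter on low counts, 103 macrophage genes and 119 fibroblast genes were called after DSS, and 89 and 190 for the interaction. Of the 103 and 119, 96 and 103 were also tested with the filter, and only these were checked for overlap. Of them 47 and 47 did not overlap, beside 24.9% and 23.7% of all genes tested. The median prior degrees of freedom became infinite, so a gene's own spread no longer entered its test. The macrophage call after DSS became 0 with the 4 DSS libraries alone, barcodes in 1 rule only, doubled thresholds or listed barcodes, and the interaction call became 0 with barcodes in 1 rule only. Shared genes numbered 59 with barcodes in 1 rule only, an alternative chosen after seeing the data.

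Leaving out single libraries gave 0 to 5 calls after DSS in T cells, all 5 without wildtype DSS replicate 2 (Ppbp, Bmp5, Krt16, Nbl1 and Aldh1a3, all higher), 0 to 18 in macrophages (18 without wildtype DSS replicate 2, 2 without wildtype DSS replicate 1) and 0 in fibroblasts. For the macrophage interaction it gave 0 to 7, with 0 without each untreated library, 7 without wildtype DSS replicate 2 and 2 without mutant DSS replicate 2. A lone library was assumed to vary like those of the other groups.

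The labels do not pair libraries. A replicate block by neighbouring title numbers called 1 fibroblast gene in the interaction (Selp, -7.94, adjusted p = 0.0121) and kept Iglc1 as the 1 macrophage call (4.81, adjusted p = 0.00568). It moved Il17a in T cells from 0.49 to 0.05. Deviations of same-numbered DSS libraries correlated across genes at 0.34 in T cells, 0.52 in macrophages and 0.48 in fibroblasts. Those of untreated libraries correlated at -0.13, 0.01 and 0.19.

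The summed UMIs were largest in T cells, and the median SE of genes at 20 CPM or more was 0.13 in T cells, 0.18 in macrophages and 0.17 in fibroblasts on the log2 scale.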
